A study of Mus musculus with 6 samples.

Results

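The hair follicle bulge is the niche of the hair follicle stem cells, and 8 genes that mark or maintain this niche in the mouse were followed here: Cd34, Sox9, Lhx2, Tcf7l1, Tcf7l2, Nfatc1, Col18a1 and Fgf18. They were taken by name, with every probe set that the platform annotation assigns to one of them, and not by their signal. The 8 genes carried 19 of the 45101 probe sets on the array and are 8 of the 18193 genes it names. Of these 19 probe sets, 13 had a present call on each array of 1 group or more and were tested, among 23017 probe sets that met this filter. They stood for 7 of the genes, since Fgf18 was not called present on any array.

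The cells were epidermal basal cells that carry α6-integrin on their surface, sorted from whole skin of female C57BL/6 mice aged 10 weeks according to the sample labels. The 3 groups were 16 dpc ventral (abdominal skin of pregnant mice at 16 days post coitum), 16 dpc dorsal (back skin of pregnant mice at the same day) and virgin ventral (abdominal skin of virgin mice), with 2 arrays each. No allele or agent is named for any group, and no virgin dorsal cells were analysed here. By their labels 16 dpc ventral and 16 dpc dorsal cells differ in site alone, and the sites are thus compared within pregnancy only. Between 16 dpc dorsal and virgin ventral cells, site and pregnancy differ together and cannot be told apart. The labels give no statement that the arrays of a group came from separate animals. The p-values take in the spread between these arrays alone, which may be technical.

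The bulge lies below the sebaceous gland, in the outer layer of the permanent part of the hair follicle. Its stem cells rest for most of the hair cycle and are called on when a new hair is formed. α6-integrin is carried by basal cells of the interfollicular epidermis and by bulge cells alike, so a sort on it collects both. Sox9, Lhx2, Tcf7l1, Tcf7l2 and Nfatc1 are transcription factors of these cells. CD34 is a surface glycoprotein used to sort them, collagen XVIII is a basement membrane component, and FGF18 is a secreted growth factor that holds the follicle in rest. The measurements are of a mixed basal population, in which fewer bulge cells and less RNA per bulge cell cannot be told apart.

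Cd34, Lhx2 and Col18a1 had their lowest signals together, on the dorsal arrays, so the 250 bases before each of their RefSeq starts are shown to let these be set side by side, with the one window of Tcf7l2 that holds a motif of its own protein family. RefSeq promoter windows of GRCm38.p6 were taken for 6 of the 8 members, and these have 9 windows. None was taken for Sox9 or Nfatc1. Member windows on 1 chromosome were skipped, so a missing window does not mean that a gene has no RefSeq start. Cd34 has 1 start (chr1:194938571-194938820, plus strand). Lhx2 has 2 (chr2:38339031-38339280 and chr2:38351058-38351307, plus strand), and Col18a1 has 2 (chr10:77166531-77166780 and chr10:77113706-77113955, minus strand). The Tcf7l2 window shown is the second of 2 (chr19:55895071-55895320, plus strand). Capitals mark the TCF motif CTTTGNT on either strand, and each sequence runs 5′ to 3′ towards the start.
Cd34 start 1: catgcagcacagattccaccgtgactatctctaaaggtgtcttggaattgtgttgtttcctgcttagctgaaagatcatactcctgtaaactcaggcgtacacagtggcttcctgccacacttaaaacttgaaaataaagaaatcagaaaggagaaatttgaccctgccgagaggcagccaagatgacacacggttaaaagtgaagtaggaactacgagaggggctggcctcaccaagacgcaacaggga
Lhx2 start 1: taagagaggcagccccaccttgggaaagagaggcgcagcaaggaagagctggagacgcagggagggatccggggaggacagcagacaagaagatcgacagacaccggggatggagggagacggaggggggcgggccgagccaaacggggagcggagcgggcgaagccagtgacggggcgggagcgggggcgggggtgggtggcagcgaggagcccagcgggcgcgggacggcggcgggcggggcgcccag
Lhx2 start 2: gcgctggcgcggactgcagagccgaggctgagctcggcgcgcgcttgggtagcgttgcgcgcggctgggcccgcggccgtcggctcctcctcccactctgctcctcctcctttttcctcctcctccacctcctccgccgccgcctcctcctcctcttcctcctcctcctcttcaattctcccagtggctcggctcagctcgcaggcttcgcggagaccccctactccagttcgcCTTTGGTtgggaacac
Col18a1 start 1: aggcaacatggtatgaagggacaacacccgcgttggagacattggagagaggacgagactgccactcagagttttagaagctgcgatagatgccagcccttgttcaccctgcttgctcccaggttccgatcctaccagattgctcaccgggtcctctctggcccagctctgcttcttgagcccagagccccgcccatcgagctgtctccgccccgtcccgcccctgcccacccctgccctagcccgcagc
Col18a1 start 2: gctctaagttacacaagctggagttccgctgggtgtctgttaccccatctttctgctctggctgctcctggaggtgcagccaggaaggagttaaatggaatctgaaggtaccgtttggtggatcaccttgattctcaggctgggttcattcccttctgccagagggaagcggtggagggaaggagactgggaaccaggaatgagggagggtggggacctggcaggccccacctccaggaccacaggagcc
Tcf7l2 start 2: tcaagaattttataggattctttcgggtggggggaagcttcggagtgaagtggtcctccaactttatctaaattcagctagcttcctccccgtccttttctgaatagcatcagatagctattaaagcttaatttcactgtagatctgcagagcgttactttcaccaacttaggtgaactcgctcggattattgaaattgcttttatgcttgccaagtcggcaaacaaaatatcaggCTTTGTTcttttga

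The windows were searched for 4 motifs on both strands. The TCF motif CTTTGNT was found in 2 of the 9 windows, Lhx2 start 2 and Tcf7l2 start 2, with its first base at −16 and −14 from the start, and 16% of all 32851 windows of the same length hold it. The SOX motif ACAATGG (3.02% of all windows), the LIM homeobox motif TAATTA (4.84%) and the NFAT motif TGGAAAA (5.93%) were found in none of the 9. No match overlapped another. The 3 genes with the lowest dorsal signals therefore have no motif of these 4 in common here.

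Cd34, Lhx2 and Col18a1 had higher signals on both 16 dpc ventral arrays than on both 16 dpc dorsal arrays. Tcf7l1, Tcf7l2 1429427_s_at and Nfatc1 1447084_at had lower signals on all 4 arrays of pregnant mice than on both virgin arrays. The share of all probe sets with both virgin arrays highest was not counted, so these have no base to be read against. Sox9, Tcf7l2 and Nfatc1 differed as much within a group as between groups on most of their probe sets. So did Tcf7l1 in 16 dpc ventral against virgin ventral cells. Its 2 16 dpc ventral arrays differed 2.92-fold, and the group means on the log2 scale differed 2.37-fold. None of these differences passed the threshold over all probe sets. With limma (lmFit and eBayes with a trend) and Benjamini-Hochberg adjustment over all 23017 probe sets, 0 of 13 member probe sets had an adjusted p under 0.05 for 16 dpc ventral over virgin ventral, where 0 of all probe sets did (0%). The count was 0 of 13 for 16 dpc ventral over 16 dpc dorsal, where 1 of all probe sets did (0.00434%), and 0 of 13 for 16 dpc dorsal over virgin ventral, where 0 did (0%). At an unadjusted p under 0.05 the member probe sets numbered 2 of 13 (8.98% of all probe sets) for 16 dpc ventral over virgin ventral. They numbered 3 of 13 (3.38%) for 16 dpc ventral over 16 dpc dorsal and 2 of 13 (6.43%) for 16 dpc dorsal over virgin ventral. With 2 arrays in each group the groups did not overlap for 5 of 13 member probe sets (43.7% of all) in the first of these comparisons, 5 of 13 (29.8%) in the second and 8 of 13 (40.2%) in the third. With the replicate number as a block 0 of 13 member probe sets passed in each comparison, where 0.0130%, 0.0261% and 0% of all probe sets did.

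Signals are MAS5 values on a linear scale in arbitrary units, comparable for one probe set between arrays and not between probe sets. Each comparison is a log2 fold change with its standard error (SE) and 95% interval from the same limma fit, and p-values are two-sided. The log2 fold changes of the 13 member probe sets had a median of −0.35 for 16 dpc ventral over virgin ventral, 0.03 for 16 dpc ventral over 16 dpc dorsal and −0.85 for 16 dpc dorsal over virgin ventral. The medians over all 23017 tested probe sets were −0.03, −0.03 and 0.03. The higher side held 4, 7 and 2 of the 13 in the same 3 comparisons, and the lower side 9, 6 and 11. Of all 10993 tested genes, each by its probe set of highest mean signal, 53.0%, 43.3% and 60.2% were on the higher side. That share is over genes, and the share over all tested probe sets was not counted. The 13 probe sets stand for 7 genes, and Tcf7l2 and Nfatc1 have 3 each.

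**Figure D1:**
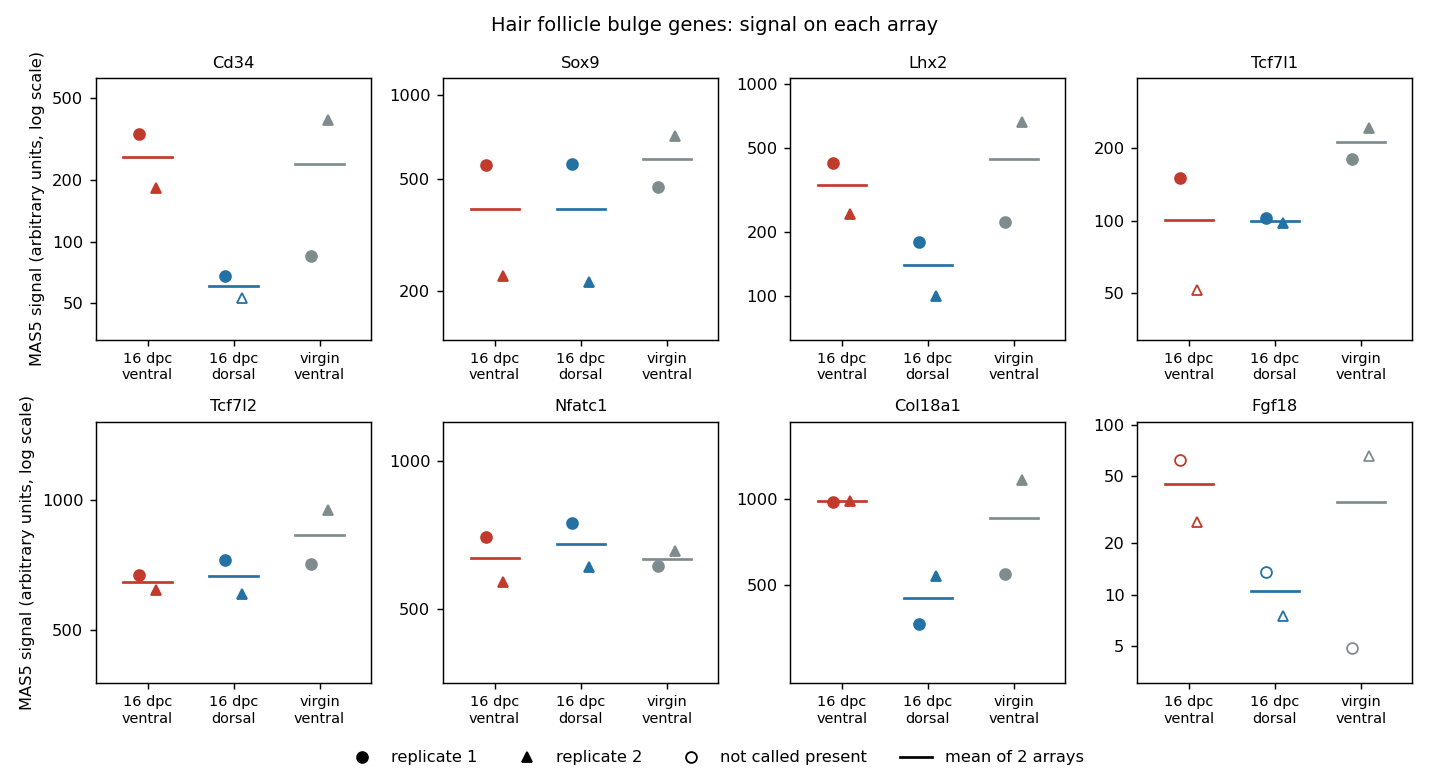
MAS5 signal (arbitrary units, log axis) of the 8 bulge genes on each array, each gene by its probe set of highest mean signal. Circles are replicate 1 and triangles replicate 2, open symbols are arrays on which the gene was not called present, and bars are means of 2 arrays. Cd34, Lhx2 and Col18a1 are lowest on the dorsal arrays, and Fgf18 is open on all 6.

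Cd34, Lhx2 and Col18a1 had their lowest signals on both 16 dpc dorsal arrays, and Tcf7l1 had its highest on both virgin arrays. Cd34 read 333 and 184 in 16 dpc ventral cells, 68.4 and 53.4 in 16 dpc dorsal cells and 85.4 and 391 in virgin ventral cells. It was called absent on 16 dpc dorsal replicate 2 and present on the other 5 arrays. Both 16 dpc ventral arrays lay above both dorsal arrays, while the virgin arrays spanned the values of the 16 dpc ventral arrays. In 16 dpc ventral over 16 dpc dorsal cells the log2 fold change was 2.03 ± 0.69 (SE, n = 2 each), with a present call on 1 of the 2 dorsal arrays and a 95% interval of 0.41 to 3.66 (limma, adjusted p = 1.0). The same-numbered arrays gave 2.29 and 1.78.

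For Cd34 the comparison of 16 dpc ventral over virgin ventral cells was 0.44 ± 0.69 on the log2 scale (SE, limma, adjusted p = 0.85). Its 2 pairs of same-numbered arrays pointed in opposite directions, with 1.97 for replicate 1 and −1.09 for replicate 2. Without virgin ventral replicate 1 the log2 fold change was −0.66. The virgin replicate with the high Cd34 level, replicate 2, had 391 against 85.4 on the other. The difference from the virgin group is therefore smaller than the spread between its own replicates.

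Col18a1 encodes the core of collagen XVIII, which sits in basement membranes under epidermis and follicle. Its probe set of higher signal read 980.2 and 986 in 16 dpc ventral cells, 364 and 539.7 in 16 dpc dorsal cells and 546 and 1166 in virgin ventral cells, and the second (1418237_s_at) read 745 and 748 in 16 dpc ventral cells, 299 and 375 in 16 dpc dorsal cells and 532 and 684 in virgin ventral cells. Both probe sets were called present on all 6 arrays. On both, the 16 dpc dorsal arrays were the lowest of the 6. The 16 dpc ventral over 16 dpc dorsal log2 fold change was 1.15 ± 0.37 (SE) for the first probe set (95% interval 0.28 to 2.01, limma, adjusted p = 1.0). For the second it was 1.16 ± 0.22 (95% interval 0.64 to 1.68, limma, adjusted p = 0.63), the smallest adjusted p of this comparison over the member probe sets. With a replicate block its adjusted p was 0.29. Set against virgin cells, the 16 dpc ventral level was 0.30 and 0.31 higher on the log2 scale, by the 2 probe sets, and the 16 dpc dorsal over virgin ventral value was −0.85 on each (limma, adjusted p = 0.70 on both). Without virgin ventral replicate 1 the first probe set's difference between 16 dpc ventral and virgin cells was −0.25. Its 16 dpc dorsal over virgin ventral value was −0.30 without virgin ventral replicate 2 and −1.39 without virgin ventral replicate 1.

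Lhx2, a LIM homeobox factor that keeps follicle stem cells in the bulge, read 423 and 243 in 16 dpc ventral cells, 181 and 100.2 in 16 dpc dorsal cells and 223 and 662 in virgin ventral cells. It was called present on every array. Both dorsal arrays lay below all others. The 16 dpc ventral level exceeded the dorsal level by 1.25 ± 0.56 on the log2 scale (95% interval −0.08 to 2.59, limma, adjusted p = 1.0), with 1.23 and 1.28 between same-numbered arrays. The 16 dpc dorsal over virgin ventral log2 fold change was −1.51 ± 0.56 (limma, 95% interval −2.84 to −0.18, adjusted p = 0.70). It was −0.73 without virgin ventral replicate 2 and −2.30 without virgin ventral replicate 1. Between 16 dpc ventral and virgin cells it was −0.26 ± 0.56, with 0.93 between replicates 1 and −1.44 between replicates 2. That sign turned to 0.14 without 16 dpc ventral replicate 2 and to 0.53 without virgin ventral replicate 2.

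Both 16 dpc dorsal arrays were the lowest of the 6 for 3 of the 7 tested members (Cd34, Lhx2 and Col18a1), against 358 of the 10993 tested genes (3.26%). The order of the 6 arrays for Lhx2 was the order for Cd34: virgin ventral 2, then 16 dpc ventral 1, 16 dpc ventral 2, virgin ventral 1, 16 dpc dorsal 1 and 16 dpc dorsal 2. By signal, whatever the call, this order was shared by 14 of the other 10992 genes (0.127%). It was looked for after the values had been seen, and Cd34 was absent on the last array in it. Of the 18 other bulge genes that were tested, 7 also had both dorsal arrays lowest, and Tnc and Tbx1 among them had the array order of Cd34, with Tnc called absent on both dorsal arrays and Tbx1 on 1. The counts of 3 and 7 came to 2 (Col18a1 left) and 7 after quantile normalization and to 3 and 4 after array medians were set equal. With all probe sets of a gene averaged they were 4 (Tcf7l2 joined) and 5, against 498 of all genes (4.46%). For Col18a1 the margin was small on its representative probe set, with 539.7 on the higher dorsal array and 546 on virgin ventral replicate 1. On 1418237_s_at these signals were 375 and 532.

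Of these other bulge genes, Lgr5, the R-spondin receptor of cycling bulge and hair germ cells, read 392 and 123 in 16 dpc ventral cells, 89.5 and 68.0 in 16 dpc dorsal cells and 134 and 484 in virgin ventral cells. Lgr5 was called absent on 16 dpc dorsal replicate 2. Tbx1, a T-box factor of bulge stem cells, read 223 and 174 in 16 dpc ventral cells, 101 and 79.3 in 16 dpc dorsal cells and 121 and 542 in virgin ventral cells. Tnc, which encodes the matrix protein tenascin C, read 116 and 76.4 in 16 dpc ventral cells, 53.3 and 32.4 in 16 dpc dorsal cells and 61.0 and 363 in virgin ventral cells, and was called absent on both dorsal arrays. For these 3 genes both 16 dpc ventral arrays lay above both dorsal arrays, and they overlapped the virgin arrays. Postn, which encodes periostin, another matrix protein, read 2657 and 2837 in 16 dpc ventral cells, 1351 and 2166 in 16 dpc dorsal cells and 2616 and 4130.2 in virgin ventral cells. The remaining genes with both dorsal arrays lowest were Nfib, Hopx and Id2, by small margins. Their higher dorsal signal and the lowest signal on the other arrays were 7333 and 7395 for Nfib, 8930 and 9996 for Hopx, and 1114 and 1121 for Id2. Krt15, a keratin of basal bulge cells that the interfollicular epidermis also carries, did not share the pattern and read 31585 and 37860.0 in 16 dpc ventral cells, 31571 and 47392 in 16 dpc dorsal cells and 37783 and 35538 in virgin ventral cells.

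**Figure D2:**
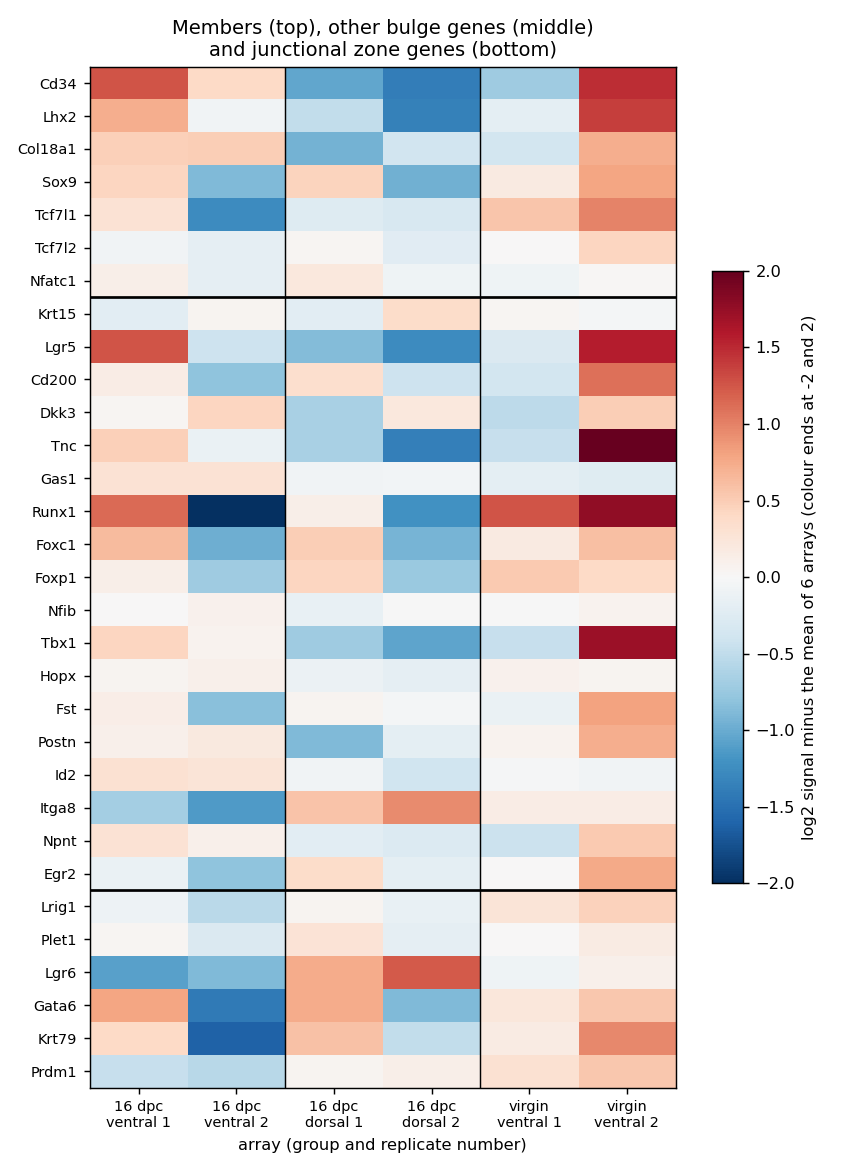
Log2 signal minus the mean of the 6 arrays for each tested member (top block), other bulge gene (middle) and junctional zone gene (bottom), with arrays in columns. Blue is below and red above the gene's own mean, and the colour ends at −2 and 2. Cd34 and Lhx2 have their 2 lowest values in the dorsal columns, and Lgr5, Tnc and Tbx1 share the strong red of Cd34 in the virgin ventral 2 column.

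Sox9, an HMG-box factor needed to set up the bulge in the developing follicle, did not follow the dorsal pattern. Its probe set of highest signal (1451538_at) read 559.7 and 225 in 16 dpc ventral cells, 568 and 214 in 16 dpc dorsal cells and 469 and 716 in virgin ventral cells. A second (1424950_at) read 488 and 109.7 in 16 dpc ventral cells, 323 and 171 in 16 dpc dorsal cells and 297 and 381 in virgin ventral cells, and one more was not called present on any array. The spread between replicates of the pregnant groups was over 2-fold on the first probe set, and on it both replicate 2 arrays of pregnant mice were the lowest of the 6. Between 16 dpc ventral and 16 dpc dorsal cells the log2 fold change was 0.03 ± 0.57 and −0.02 ± 0.67 for the 2 probe sets (limma, adjusted p = 1.0 for both). Against virgin cells the 16 dpc ventral value was −0.71 ± 0.57 and −0.54 ± 0.67 (limma, adjusted p = 0.69 and 0.80).

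Tcf7l1 and Tcf7l2 encode TCF factors that bind DNA at Wnt target genes, and TCF7L1 acts mostly as a repressor in follicle stem cells. Tcf7l1 read 150.4 and 51.5 in 16 dpc ventral cells, 102 and 98.2 in 16 dpc dorsal cells and 179.6 and 243 in virgin ventral cells, with 16 dpc ventral replicate 2 called absent. Both virgin arrays were above all 4 arrays of pregnant mice. The 16 dpc ventral over virgin ventral log2 fold change was −1.25 ± 0.51 (95% interval −2.45 to −0.04, limma, adjusted p = 0.55), and the 16 dpc dorsal over virgin ventral one was −1.06 ± 0.51 (limma, adjusted p = 0.70). The first of these was −0.47 when 16 dpc ventral replicate 2 was left out and −2.02 when replicate 1 of that group was. Between the sites in pregnant mice it was −0.19 ± 0.51. A second Tcf7l1 probe set was not called present on any array.

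Tcf7l2 was measured by 3 tested probe sets whose fold changes differed in size. The representative probe set (1429428_at) read 673 and 622 in 16 dpc ventral cells, 728 and 606 in 16 dpc dorsal cells and 713 and 949.6 in virgin ventral cells. The second (1429427_s_at) read 677 and 235 in 16 dpc ventral cells, 573 and 165 in 16 dpc dorsal cells and 735 and 979 in virgin ventral cells, and another (1425229_a_at) read 113 and 53.1 in 16 dpc ventral cells, 89.2 and 20.4 in 16 dpc dorsal cells and 107 and 196 in virgin ventral cells. On each, the virgin ventral replicate 2 array was the highest and the 16 dpc dorsal replicate 2 array the lowest. On 1429427_s_at both virgin arrays were above all arrays of pregnant mice. The log2 fold changes of 16 dpc ventral over virgin ventral were −0.35 ± 0.21, −1.09 ± 0.66 and −0.90 ± 0.75, with adjusted p = 0.61 to 0.70 in limma. The suffixes _s_at and _a_at denote probe sets whose probes match more than 1 transcript.

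Nfatc1, a calcineurin-dependent factor that keeps bulge stem cells at rest, was measured by 3 tested probe sets. The representative probe set (1428479_at) read 702 and 569 in 16 dpc ventral cells, 749.6 and 609 in 16 dpc dorsal cells and 611 and 655 in virgin ventral cells, with a 16 dpc ventral over virgin ventral log2 fold change of −0.0017 ± 0.20 (95% interval −0.49 to 0.48). The second (1417621_at) read 331 and 276 in 16 dpc ventral cells, 315 and 358 in 16 dpc dorsal cells and 225 and 379.6 in virgin ventral cells, and also showed no difference beyond its spread, with 0.05 ± 0.30. The third (1447084_at) read 92.2 and 69.1 in 16 dpc ventral cells, 116 and 106 in 16 dpc dorsal cells and 143 and 136 in virgin ventral cells. Its values did not overlap between any 2 groups, and the 16 dpc ventral over virgin ventral log2 fold change was −0.80 ± 0.32 (limma, adjusted p = 0.55). On the other 2 probe sets these groups overlapped, and 2 further Nfatc1 probe sets were called present on too few arrays to be tested.

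Fgf18 was called absent on all 6 arrays, with signals of 4.8 to 65.0, so it has no measured order between groups. A gene not called present has only a bound, and no fold change is given for it.

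**Figure D3:**
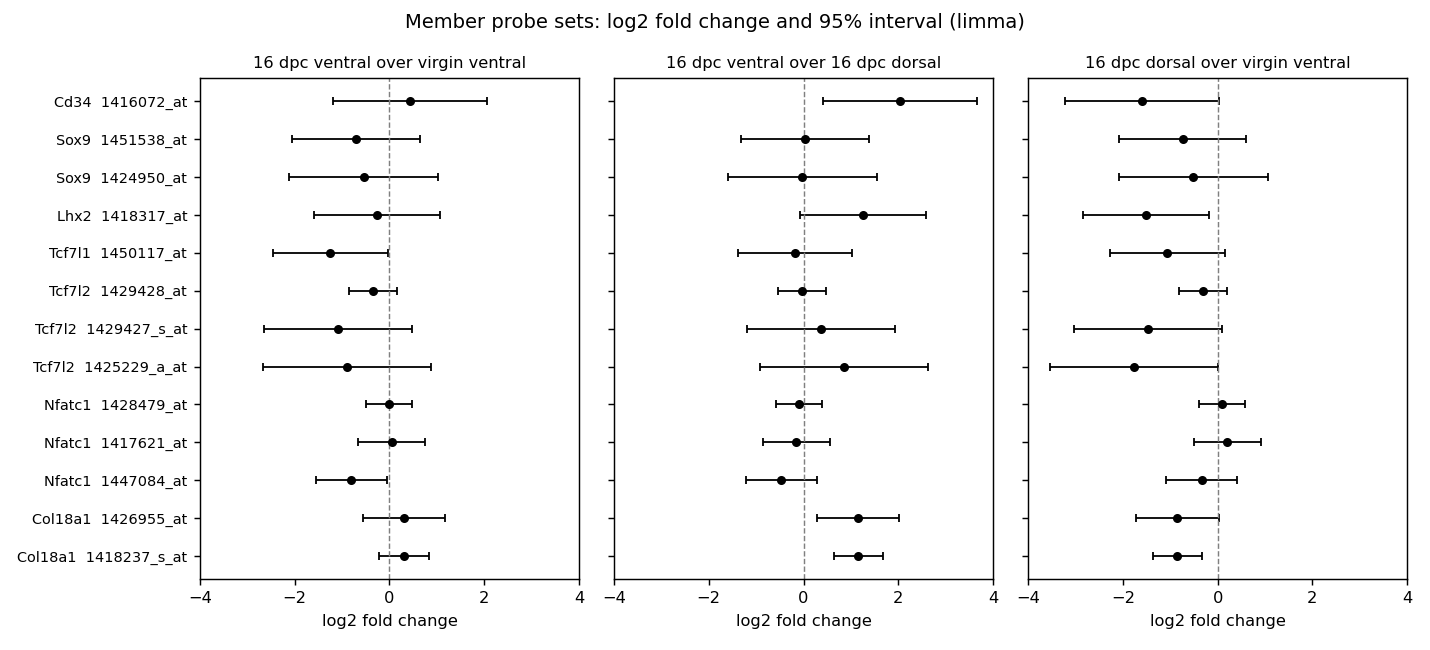
Log2 fold change of the 13 tested member probe sets (rows) with 95% intervals from limma, in the 3 comparisons. Cd34 and both Col18a1 probe sets lie right of 0 with their intervals in 16 dpc ventral over 16 dpc dorsal, and none of the 13 passed the adjusted threshold in any panel.

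**Figure D4:**
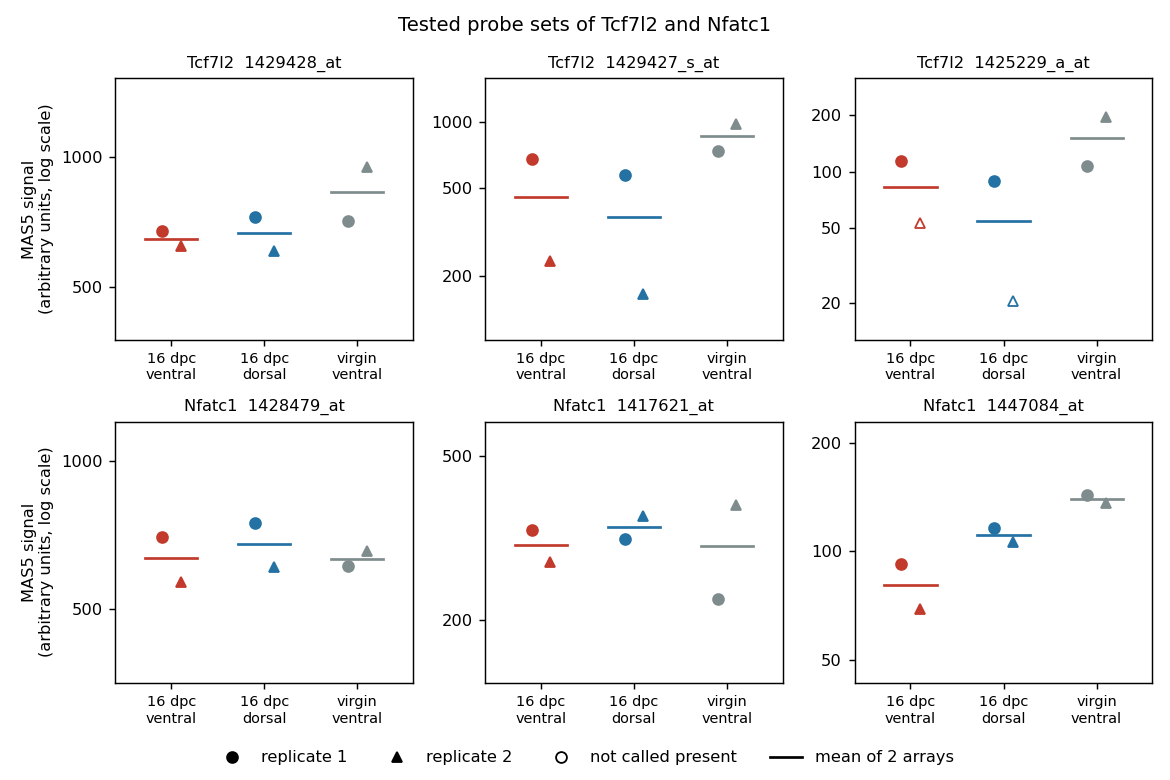
MAS5 signal (arbitrary units, log axis) on each array for the 3 tested probe sets of Tcf7l2 (top) and of Nfatc1 (bottom). Circles are replicate 1, triangles replicate 2, open symbols arrays not called present, and bars means of 2 arrays. The 3 Tcf7l2 probe sets are lowest on the 16 dpc dorsal replicate 2 array, and of the 6 probe sets Nfatc1 1447084_at alone separates all 3 groups.

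Both 16 dpc replicate 2 arrays were the lowest of the 6 for 7 of the 13 tested member probe sets (both tested probe sets of Sox9, all 3 of Tcf7l2, Tcf7l1 and Nfatc1 1428479_at), against 3792 of 23017 probe sets tested. Taking 1 probe set a gene, the counts were 4 of 7 members (Sox9, Tcf7l1, Tcf7l2 and Nfatc1) and 981 of 10993 genes (8.92%). Actin probe sets measured the ratio of 3′ to 5′ signal, which rises as RNA is degraded, at 1.78 (16 dpc ventral 1), 3.90 (16 dpc ventral 2), 2.04 (16 dpc dorsal 1), 4.47 (16 dpc dorsal 2), 2.46 (virgin ventral 1) and 2.15 (virgin ventral 2). The GAPDH ratio was 2.86 and 2.83 on the replicate 2 arrays of pregnant mice and 1.53 to 2.50 on the other 4. These arrays also had the fewest present calls, at 48.5% and 47.2% against 50.6% to 53.3%. The summed signal of 6 sebaceous gland genes moved with them too, at 30272 and 15594 in 16 dpc ventral cells, 25995 and 13840 in 16 dpc dorsal cells and 19092 and 20758 in virgin ventral cells, and 2 of the 4 that were tested (Mgst1 and Scd1) had both 16 dpc replicate 2 arrays lowest. The part of these measures in the low Sox9, Tcf7l2, Tcf7l1 and Nfatc1 values was not tested. Without both arrays, the 16 dpc ventral over virgin ventral log2 fold change of Sox9 was −0.05, of Tcf7l2 −0.29 and of Tcf7l1 −0.47, against −0.71, −0.35 and −1.25 with them. Each pregnant group then has 1 array, which is assumed to vary like the virgin pair. For Cd34, Lhx2 and Col18a1 the 16 dpc ventral over 16 dpc dorsal values without them were 2.29, 1.23 and 1.43.

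Genes with the most similar pattern to each member over the 6 arrays were found by Pearson r of log2 signal among 10992 other tested genes, as a description. Cd34 was closest to Rab11fip3 (r = 0.999), Col8a2 (0.996) and Kcnk2 (0.989). Lhx2 ranked 18 in that list with r = 0.94 and Col18a1 ranked 45 with r = 0.906. Lhx2 was closest to Lrrc75b, Shisa2 and Basp1, Col18a1 to Dpp4, Slc35f2 and Smtn, and Sox9 to Psen2, Synrg and Slc16a6. Tcf7l1 was closest to Krt8 (r = 0.993), Fam222b and Rabepk, Tcf7l2 to Gprin3, Mid1ip1 and Ptov1, and Nfatc1 to Ces1d, Ldhb and Atg12. With 6 arrays in 3 groups and many genes compared, such r values share their arrays and their ranks carry no p.

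Around the members, the 9 lists of related genes gave no gene past the threshold. The 18 tested other bulge genes had a median log2 fold change of −0.32 for 16 dpc ventral over virgin ventral and 0.17 for 16 dpc ventral over 16 dpc dorsal, against 0.02 and −0.03 over all 10993 genes. In the first comparison 6 were higher and 12 lower, and in the second 11 were higher and 7 lower. By smallest p against virgin cells the named genes were Gas1, a growth arrest factor (log2 fold change 0.50, limma, adjusted p = 0.50), Itga8, an integrin subunit that binds nephronectin (−1.06, adjusted p = 0.55), and Egr2, a zinc finger transcription factor (−0.85, adjusted p = 0.55). Itga8 had its highest signals on the dorsal arrays, at 33.7 and 24.6 in 16 dpc ventral cells, 80.4 and 104 in 16 dpc dorsal cells and 60.3 and 60.2 in virgin ventral cells, and its 16 dpc ventral over 16 dpc dorsal log2 fold change was −1.67 (limma, adjusted p = 1.0). For Egr2 the same-numbered arrays of 16 dpc ventral and virgin cells gave −0.14 and −1.56. The 6 genes of the junctional zone and isthmus above the bulge, all tested, had lower mean log2 signals in 16 dpc ventral cells than in virgin ventral or 16 dpc dorsal cells, with medians of −0.82 against virgin and −0.43 against dorsal cells, and 4 of them had both 16 dpc replicate 2 arrays lowest. Of these 6, Lgr6 (log2 fold change against virgin cells −0.99, limma, adjusted p = 0.37) and Lrig1, an inhibitor of EGF receptor signalling (−0.67, adjusted p = 0.50), had the smallest p. Lgr6, a receptor of isthmus stem cells, did not have the replicate 2 arrays lowest and read 788 and 903 in 16 dpc ventral cells, 2778 and 3879.5 in 16 dpc dorsal cells and 1567 and 1783 in virgin ventral cells.

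Partners of the members were also listed by role, and of each list the 2 genes with the smallest p against virgin cells are named with that log2 fold change. The 11 tested TCF partners had medians of −0.12 and −0.15 in those 2 comparisons, the 8 calcineurin and NFAT genes −0.05 and −0.04, and the 9 FGF ligands, receptors and feedback genes −0.18 and −0.16. The co-repressors Ctbp2 and Tle3 among the TCF partners had 0.55 and −0.34 (limma, adjusted p = 0.50 and 0.55). Nfatc2, a relative of Nfatc1, had −1.03, with −0.38 and −1.67 between same-numbered arrays, and Ppp3cb, a catalytic subunit of calcineurin, had 0.28 (limma, adjusted p = 0.53 and 0.62). Spry2, a feedback inhibitor of FGF signalling, and the ligand gene Fgf1 had −0.58 and −0.48 (limma, adjusted p = 0.63 and 0.64). The 6 tested SOX and LIM partners were lower on average in 16 dpc ventral than in virgin cells on every one, with a median of −0.29, and had a median of 0.03 against dorsal cells. Sox21 and Sox7 had −0.31 and −0.41 (limma, adjusted p = 0.57 and 0.59). Of the 10 tested basement membrane partners of Col18a1, 8 were higher in 16 dpc ventral than in dorsal cells and 7 were higher than in virgin cells (medians 0.16 and 0.08). Col7a1, the collagen of anchoring fibrils, and Agrn, which encodes the proteoglycan agrin, had 0.75 and 0.32 (limma, adjusted p = 0.55 and 0.63). Col4a1, a chain of collagen IV, was the one of them with both dorsal arrays lowest, at 817 and 829 in 16 dpc ventral cells, 376 and 523 in 16 dpc dorsal cells and 684 and 819 in virgin ventral cells.

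Genes of hair formation were mostly below detection, and 6 of 16 hair germ, matrix and shaft genes on the array were tested (median −0.74 against virgin cells). The hair keratin gene Krt33a had a log2 fold change of −1.66 against virgin cells (limma, adjusted p = 0.46), with 16 dpc ventral replicate 1 called absent. Krt25, a keratin of the inner root sheath, had −1.80 (limma, adjusted p = 0.55), with −0.21 and −3.40 between same-numbered arrays and 16 dpc ventral replicate 2 called absent. Of the 16 genes, 9 were present on virgin ventral replicate 2, the array with the highest Cd34 and Lhx2 signals, and 2 to 7 on the others. Their summed signal was 2608 on that array and 1717 to 2156 on the other 5, and its part in the Cd34 and Lhx2 values was not tested.

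Of 5 keratins of the outer root sheath and companion layer, 4 were tested. Krt16 read 738 and 742 in 16 dpc ventral cells, 306 and 693 in 16 dpc dorsal cells and 289 and 326 in virgin ventral cells, with a log2 fold change of 1.27 against virgin cells (limma, adjusted p = 0.50). Both 16 dpc ventral arrays lay above the other 4. For Krt6a that value was 1.16 (limma, adjusted p = 0.65), with 2.70 and −0.39 between same-numbered arrays.

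Marker lists of other cells bear on Cd34, which endothelial cells, fibroblasts and mast cells also carry. Of 11 endothelial genes, 1 to 3 were called present on each array, with summed signals of 466 to 473 in 16 dpc ventral, 478 to 490 in 16 dpc dorsal and 366 to 691 in virgin ventral cells, and Pecam1, Cdh5, Flt1, Tie1 and Tek were absent on all 6. Of 7 fibroblast genes, 1 to 2 were called present on each array, and sums ran from 207 to 213 in 16 dpc ventral, 193 to 218 in 16 dpc dorsal and 279 to 468 in virgin ventral cells. Dcn, the proteoglycan decorin, was present on the virgin arrays alone, at 122 and 196. None of 6 mast cell genes was present on any array. Virgin ventral replicate 2 had the highest sum of each of these 3 lists and the highest Cd34 signal. It also had the highest median signal over all probe sets, at 78.9. The sums take in signals not called present, which were those of most endothelial and fibroblast genes and of all mast cell genes. The part of these 3 lists in the Cd34 level was not tested. All 7 basal and all 6 suprabasal keratinocyte genes were present on every array, and the leukocyte sum was 977 to 1240 in 16 dpc ventral, 1089 to 1154 in 16 dpc dorsal and 596 to 731 in virgin ventral cells.

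The 6 arrays had 21285 to 24053 probe sets called present and median signals of 61.1 to 78.9. Replicates of one group correlated at r = 0.972 to 0.977, and arrays of different groups at r = 0.951 to 0.980.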

How the data were processed

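Basal cells were sorted by the authors from skin digested in cold trypsin, with the dermis removed, as propidium iodide-negative cells that stained for α6-integrin, and RNA was hybridised to Affymetrix mouse 3′ arrays. The deposited files hold a signal intensity on a linear scale and a detection call (present, marginal or absent) for each probe set and array. Affymetrix Expression Console version 1 is named in the submitters' processing notes. The intensities the authors deposited have the form of MAS5 output with a common trimmed mean, 500.003 on each of the 6 arrays. Such scaling hides any shift in the RNA content of a cell, and probe sets far from the 3′ end lose signal in degraded RNA. For the probe sets the genome build is not stated in the sources used here.

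Gene names came from the platform annotation (34945 probe sets with 1 gene, 932 with several, 9160 with none). The 8 genes were matched by symbol to probe sets of 1 gene, and a gene was represented by its probe set of highest mean log2 signal. Signals under 1 were set to 1 before log2 was taken. Differences were tested with limma 3.58.1 in R 4.3.3 on all 6 arrays (two-sided, 3 residual and 4.08 prior degrees of freedom). Adjustment by Benjamini-Hochberg ran over the probe sets with a present call on each array of 1 group or more, and the threshold was 0.05. The script was also run on simulated data with known changes. Noise there was independent between arrays, while the replicate differences of the 2 pregnant groups were correlated (given below), so it does not cover that feature. The precision is limited by 2 arrays a group. The lowest signal called present was 6.34 to 11.3.

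Other genes were named as the 2 to 4 of each list with the smallest p for 16 dpc ventral over virgin ventral, the 3 most like each member, and, after their values were seen, Krt15, those that share an array pattern and the markers whose levels moved with a member. The members and lists were chosen with earlier results of these data known. In the column headers a prefix is common to same-numbered arrays. The gestation day there differs a little from that of the labels, which was taken. The replicate differences over all probe sets correlated at 0.54 between 16 dpc ventral and 16 dpc dorsal, and at −0.02 and −0.0079 between these and virgin ventral. The pairing by number was used in an alternative fit only, as a block over all 3 groups. No paired fit of the 2 pregnant groups alone was made.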

Additional observations from a re-analysis of the deposited data

How the results depend on the processing

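Across 17 alternatives no member passed the threshold, and 327 of 351 gene values kept their direction. Of the 24 that reversed, none was significant. For Nfatc1, 16 dpc ventral over virgin ventral turned to 0.039 with quantile normalization, 0.20 with equal array medians and 0.15 without both arrays of high actin ratio, and 16 dpc dorsal over virgin ventral to −0.12 with all probe sets of a gene averaged. That averaging turned 16 dpc ventral over 16 dpc dorsal to −0.070 for Sox9, 0.37 for Tcf7l1 and 0.47 for Tcf7l2. Without both arrays of high actin ratio that comparison was −0.020 for Sox9 and 0.56 for Tcf7l1, and Lhx2 over virgin was 0.14. The cause was not tested. Leaving out single arrays, 16 dpc ventral over virgin ventral ranged from −0.66 to 1.54 for Cd34, −1.04 to 0.53 for Lhx2, −0.15 to 0.15 for Nfatc1 and −0.25 to 0.85 for Col18a1. In 16 dpc ventral over 16 dpc dorsal it ranged from −0.68 to 0.73 for Sox9, −0.96 to 0.59 for Tcf7l1, −0.17 to 0.10 for Tcf7l2 and −0.25 to 0.056 for Nfatc1, and in 16 dpc dorsal over virgin ventral from −0.055 to 0.24 for Nfatc1.

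Over all features, calls for 16 dpc ventral over virgin ventral, 16 dpc ventral over 16 dpc dorsal and 16 dpc dorsal over virgin ventral numbered 0, 1 and 0. They were 3, 6 and 0 with the replicate block, which changed no call of a member, and 4, 6 and 2 with equal array medians. With 1 probe set a gene they were 22, 9 and 0, and with all probe sets of a gene averaged 5, 0 and 0. Without both arrays of high actin ratio each pregnant group has 1 array, so the calls of that fit are not given. Equal array medians moved the median log2 fold change of all probe sets to 0.18 for 16 dpc ventral over virgin ventral and 0.20 for 16 dpc dorsal over virgin ventral, against −0.03 and 0.03. With them, 4 other bulge genes (Lgr5, Tnc, Tbx1 and Postn) in place of 7 had both dorsal arrays lowest, and 2 members (Sox9 and Tcf7l1) in place of 4 had both 16 dpc replicate 2 arrays lowest. With all probe sets of a gene averaged this last count was 1 (Sox9). These pattern counts were added after seeing the data. A group of 2 arrays limits what any fit can detect.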
